A study of Mus musculus with 8 samples.

Results

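Neutrophil granule genes of mouse knee joints were examined here in the order in which maturing neutrophils switch them on. The 10 genes were picked out of the table by gene name, in a rule that uses no measured value, although the set was proposed with earlier results of these data known: 4 early genes (Mpo, Elane, Prtn3 and Ctsg), 3 middle genes (Ltf, Camp and Ngp) and 3 late genes (S100a8, S100a9 and Mmp8). All 10 were found among the 20681 genes of the table, and all 10 passed the filter on low values (4 or more of the 8 libraries with a normalised read count of 10 or above).

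The study sequenced poly-A RNA of 8 knee joints, 4 labelled control and 4 labelled knockout, to compare joints with and without LOXL2, an enzyme that cross-links collagen and elastin. The series' design text gives all 8 joints the background Acan-Cre;Loxl2 fl/fl, in which Cre recombinase is driven by the promoter of the aggrecan gene, active in cartilage cells, and describes the controls as vehicle-treated. The library names add DMM to both groups, the abbreviation of a knee operation that unsettles the medial meniscus and leads to osteoarthritis, and call the controls LOXL2wt and the others LOXL2ko. The agent given in place of vehicle, the age and sex of the mice, the time after surgery and whether each library is 1 animal are not given in the sources used here, so p-values measure the spread between these libraries.

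Neutrophils are short-lived white cells that ripen in the bone marrow, and a knee joint sample holds marrow, bone, cartilage, synovium and muscle. Their granule proteins are made in waves. Promyelocytes transcribe the azurophil granule proteins, such as myeloperoxidase and the serine proteases; myelocytes then switch to the specific granule proteins; and band and segmented cells carry the gelatinase granule proteins and abundant cytosolic S100A8 and S100A9. Early granule transcripts are largely shut off before neutrophils leave the marrow, so their RNA marks precursors, whereas S100a8 and S100a9 RNA persists in mature cells. The transcription factors PU.1, C/EBP-alpha, C/EBP-epsilon, RUNX1 and MYB are known to act on granule gene promoters.

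Promoters of 6 members are shown because these genes carry the comparisons of levels and ratios below: the neighbouring protease genes Elane and Prtn3 with Mpo for the early stage, Ngp for the middle stage, and the partners S100a8 and S100a9 for the late stage. Each runs from 250 bases before to 50 bases after the gene's start, 5′ to 3′ on the gene's own strand, from the RefSeq table of build GRCm38.p6, which held all 10 members. Capitals mark every match, on either strand, to 4 short motifs. GAGGAA is the core of sites bound by PU.1 and reads TTCCTC on the opposite strand. GCAAT is known as the half-site of C/EBP factors and reads ATTGC on the opposite strand. TGTGGT is the core that RUNX proteins bind, and TAACNG the core that MYB binds, each searched on both strands as well. The matches printed do not overlap each other. Mpo lies at chr11:87793534-87793833 on the plus strand, Elane at chr10:79886062-79886361 on the plus strand, Prtn3 at chr10:79879417-79879716 on the plus strand, Ngp at chr9:110419558-110419857 on the plus strand, S100a8 at chr3:90668821-90669120 on the plus strand and S100a9 at chr3:90695672-90695971 on the minus strand.
Mpo: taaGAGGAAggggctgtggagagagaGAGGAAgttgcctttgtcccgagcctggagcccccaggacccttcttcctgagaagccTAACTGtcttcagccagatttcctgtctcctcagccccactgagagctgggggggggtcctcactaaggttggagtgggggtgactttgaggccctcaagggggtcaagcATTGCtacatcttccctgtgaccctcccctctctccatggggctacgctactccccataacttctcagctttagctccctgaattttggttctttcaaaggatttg
Elane: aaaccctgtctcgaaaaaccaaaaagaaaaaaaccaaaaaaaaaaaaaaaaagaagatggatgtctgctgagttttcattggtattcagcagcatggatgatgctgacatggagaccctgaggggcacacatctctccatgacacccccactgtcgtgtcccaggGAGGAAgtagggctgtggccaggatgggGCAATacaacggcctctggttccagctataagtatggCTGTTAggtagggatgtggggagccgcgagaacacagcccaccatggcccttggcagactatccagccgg
Prtn3: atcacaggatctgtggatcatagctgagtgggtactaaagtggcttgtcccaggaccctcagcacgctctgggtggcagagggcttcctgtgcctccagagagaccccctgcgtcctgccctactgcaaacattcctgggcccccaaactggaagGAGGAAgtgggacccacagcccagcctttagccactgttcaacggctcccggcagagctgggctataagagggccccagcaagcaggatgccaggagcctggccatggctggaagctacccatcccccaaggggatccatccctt
Ngp: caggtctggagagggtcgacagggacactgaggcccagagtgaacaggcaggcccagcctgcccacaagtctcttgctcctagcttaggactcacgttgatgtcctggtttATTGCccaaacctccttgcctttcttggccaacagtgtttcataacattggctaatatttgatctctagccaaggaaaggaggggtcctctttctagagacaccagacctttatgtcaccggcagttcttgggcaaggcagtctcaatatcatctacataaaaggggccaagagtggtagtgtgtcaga
S100a8: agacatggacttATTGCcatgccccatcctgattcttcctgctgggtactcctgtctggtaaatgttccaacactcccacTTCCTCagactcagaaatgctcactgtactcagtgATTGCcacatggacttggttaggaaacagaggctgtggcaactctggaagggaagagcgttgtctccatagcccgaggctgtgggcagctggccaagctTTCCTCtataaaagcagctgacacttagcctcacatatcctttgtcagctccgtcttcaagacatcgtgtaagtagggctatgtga
S100a9: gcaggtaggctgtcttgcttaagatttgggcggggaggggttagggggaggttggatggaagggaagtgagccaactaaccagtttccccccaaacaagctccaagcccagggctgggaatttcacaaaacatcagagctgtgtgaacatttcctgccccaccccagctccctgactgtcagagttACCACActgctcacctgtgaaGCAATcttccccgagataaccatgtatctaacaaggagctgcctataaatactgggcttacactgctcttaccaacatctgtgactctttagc
GAGGAA was present in the promoters of 7 of the 10 members, against 28.3% of the 32851 promoters of that length in the table. All 4 early genes held it in the forward direction, which in Elane starts at position -85 and in Prtn3 at position -95 from the start. Ltf, S100a8 and Mmp8 held it as TTCCTC, and Camp, Ngp and S100a9 had no match in these windows. GCAAT was present in 8 of 10 members (26.4% of all promoters), all but Prtn3 and Ctsg. TGTGGT was present in Ctsg, Ltf and S100a9, 3 of 10 (16.8% of all promoters), and TAACNG in Mpo, Elane and Mmp8, 3 of 10 (23.3% of all promoters). These are letter matches, with no measurement of binding; the median GC content of the member promoters was 51.0%, against 52.7% over all.

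The libraries held 13991000 to 17411617 reads assigned to genes, and the values below are the authors' normalised read counts. Loxl2, the targeted gene, went against the labels: the 4 controls had 282, 349, 1135 and 311 normalised reads and the libraries labelled knockout 893, 1468, 960 and 1518, a log2 difference of 1.44 (SE 0.40, limma adjusted p = 0.0294, exact permutation p = 0.0857). That difference did not pass by edgeR (adjusted p = 0.0669), by DESeq2 (adjusted p = 0.0659) or in 5 of the 8 fits that left out 1 library. The count covers the whole gene and does not separate a deleted part from the rest, so the 4 libraries are called knockout-labelled here and every direction below is between labels. Levels of tissue marker genes also differed between the labels. By limma 12 of 14 fibroblast genes were called higher and 7 of 18 skeletal muscle genes lower in the knockout-labelled libraries. Over all genes tested 11.6% were called in each direction. Of the muscle genes edgeR called 12 and DESeq2 14. Whether the mix of tissues or the RNA per cell differed was not tested. For the granule genes 2 libraries stood at the ends, control replicate 1 and knockout-labelled replicate 4. The differences of the granule genes are therefore also given without 1 or the other where that moved them. In whole joints, fewer neutrophils and less RNA per neutrophil cannot be told apart.

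None of the 10 granule genes differed between the labels by the test across all genes. The test was limma on log2(normalised read count + 1), with Benjamini-Hochberg adjustment over the 14949 genes tested, of which 23.2% were called at an adjusted p under 0.05 in either direction (11.6% lower and 11.6% higher in the knockout-labelled libraries). Among the members 0 were called by limma, by edgeR (22.2% of all genes called) or by DESeq2 (27.6%). At an unadjusted p under 0.05 the counts were 1 by limma (Elane), 0 by edgeR and 1 by DESeq2 (Elane), where limma gave 38.4% of all genes. The point estimates of all 10 members were below 0, against 49.9% of all genes tested, with a median log2 difference of -0.57, against 0.00 for all genes. By stage the median was -0.75 for the early, -0.64 for the middle and -0.36 for the late genes. The ranges of the 2 groups overlapped for all 10 members, whereas 25.1% of all genes tested had ranges that did not.

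The size of the negative median rested largely on 2 libraries, picked because they stood at the ends for these genes. Control replicate 1 had the highest value of all 8 libraries for 10 of 10 members (9.83% of all genes tested were highest there). Knockout-labelled replicate 4 had the lowest value for 6 of 10, the 3 middle genes with Mpo, Elane and Prtn3 (17.9% of all genes were lowest there). Without control replicate 1 the median member difference was -0.08 and 8 of 10 estimates stayed below 0, with stage medians of -0.19 (early), -0.10 (middle) and -0.05 (late). Without knockout-labelled replicate 4 it was -0.25 and 7 of 10 were below 0, with stage medians of -0.21, -0.17 and -0.26. No member was called in either fit, in which 19.8% and 11.7% of all genes were called, and none had an unadjusted p under 0.05. Removing the highest control or the lowest knockout-labelled value must shrink a negative difference, and other omissions mostly deepened it. The median was -0.94 with control replicate 2 omitted, -0.72 with number 3 and -0.49 with number 4. For knockout-labelled replicates 1, 2 and 3 it was -0.79, -0.72 and -0.65. All 10 estimates stayed below 0 in each of these fits. The members also varied far more among libraries of 1 label than most genes did: the median SD on the log2 scale was 1.14 in the controls and 0.95 in the knockout-labelled libraries, against 0.22 and 0.23 over all genes tested.

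**Figure D1:**
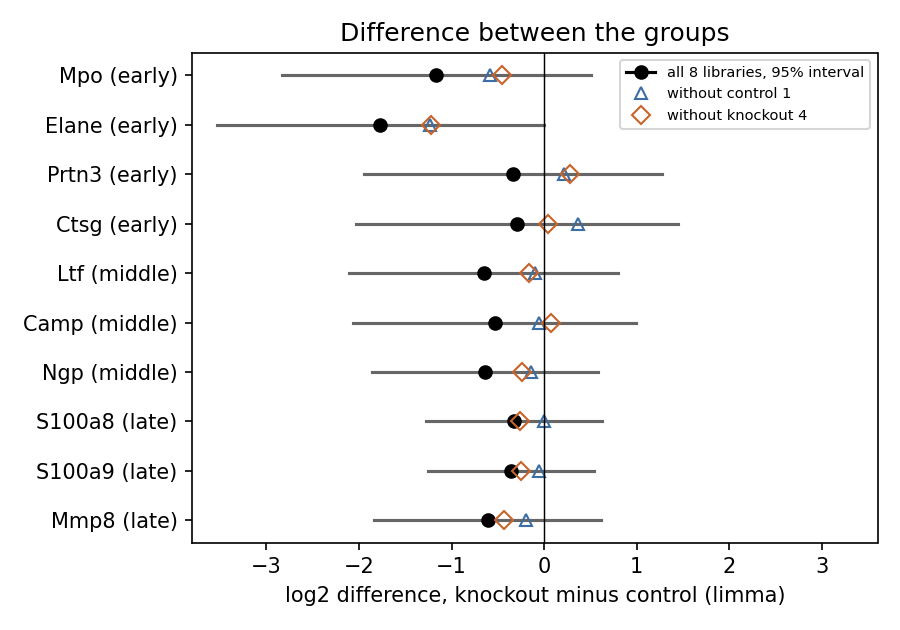
Log2 difference in normalised read count (knockout-labelled minus control, horizontal axis) of the 10 granule genes, with limma's 95% interval as a line, and the same without control replicate 1 (triangles) or without knockout-labelled replicate 4 (diamonds). All 10 estimates from 8 libraries lie below 0, only the interval of Elane ends short of 0 (at -0.01), and Prtn3, Ctsg and Camp move to the other side of 0 when 1 of those libraries is left out.

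Among the early genes, the azurophil granule proteins, Elane and Mpo had the most negative estimates of the whole set. Ctsg had the least negative by limma, but -0.81 by edgeR and -0.82 by DESeq2, where Prtn3 was least negative (-0.36 by both). Mpo, at chr11:87793581-87804413 (GRCm38, plus strand), encodes myeloperoxidase, the haem enzyme that makes hypochlorous acid. Controls 1 to 4 had 318, 47.4, 63.6 and 83.2 normalised reads of Mpo, and knockout-labelled libraries 1 to 4 had 86.8, 73.6, 51.1 and 8.80. Control replicate 1 was high and knockout-labelled replicate 4 low, and the other 6 libraries lay between 47.4 and 86.8. The log2 difference was -1.16 (SE 0.75, 95% interval -2.83 to 0.50, limma adjusted p = 0.281). It was -0.58 without control replicate 1 and -0.45 without knockout-labelled replicate 4. Gm11505, annotated on the opposite strand, shares 512 of Mpo's 3424 exon bases, and the authors' strand setting is not given in the sources used here.

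Elane, at chr10:79886247-79888215 (plus strand), encodes neutrophil elastase, a serine protease that cleaves elastin and bacterial proteins. Normalised read counts of Elane were 175, 36.3, 34.6 and 46.0 in the controls and 44.9, 42.8, 6.53 and 4.40 in the knockout-labelled libraries. Knockout-labelled replicates 3 and 4 were low, at 6 and 5 reads, while replicates 1 and 2 lay among control replicates 2 to 4. The log2 difference was -1.77 (SE 0.79, 95% interval -3.53 to -0.01, unadjusted p = 0.0493 and adjusted p = 0.129 by limma, exact permutation p = 0.229). It was -1.23 without control replicate 1 and -1.22 without knockout-labelled replicate 4.

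Prtn3, at chr10:79874476-79883174 (plus strand), encodes proteinase 3, the protease whose gene ends 3073 bases before that of Elane begins. The normalised read counts, in replicate order throughout, were 200, 29.3, 41.1 and 64.6 in the controls and 106, 99.2, 42.4 and 13.2 in the knockout-labelled libraries. Apart from control replicate 1, the 2 highest values were in knockout-labelled replicates 1 and 2. The log2 difference of -0.34 (SE 0.72, limma adjusted p = 0.762) was 0.21 without control replicate 1 and 0.27 without knockout-labelled replicate 4. Plppr3, on the opposite strand, shares 159 of Prtn3's 1732 exon bases (9.18%) and had a mean of 61.8 in the controls and 154 in the knockout-labelled libraries (log2 difference 1.39, limma adjusted p = 0.0212). Reads of the pair over those bases cannot be told apart without strand, and the part of Plppr3 in the Prtn3 values was not tested.

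Ctsg, at chr14:56099881-56102574 (minus strand), encodes cathepsin G, a chymotrypsin-like protease of the same granules. Normalised reads of Ctsg numbered 42.2, 2.02, 6.54 and 14.2 in the controls and 5.98, 11.97, 15.2 and 3.52 in the knockout-labelled libraries. These levels rest on few reads, only 2 in control replicate 2. The log2 difference of -0.29 (SE 0.78, limma adjusted p = 0.813) turned to 0.36 without control replicate 1 and to 0.04 without knockout-labelled replicate 4.

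The 3 middle genes, all on chromosome 9, moved together from library to library. Ltf, at chr9:111019271-111042767 (plus strand), encodes lactoferrin, the iron-binding protein of specific granules. The controls had 725, 83.8, 181 and 245 normalised reads of Ltf and the knockout-labelled libraries 251, 236, 141 and 51.9. The log2 difference was -0.65 (SE 0.65, 95% interval -2.10 to 0.80, limma adjusted p = 0.493). Without control replicate 1 it was -0.10, and -0.17 without knockout-labelled replicate 4.

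Camp, at chr9:109847379-109849617 (minus strand), encodes cathelicidin, the precursor of an antimicrobial peptide. For Camp the normalised read counts were 584, 107, 109 and 300 in the controls and 249.3, 281, 161 and 40.5 in the knockout-labelled libraries. The medians of the 2 groups were nearly equal, and the log2 difference was -0.54 (SE 0.68, 95% interval -2.06 to 0.99, limma adjusted p = 0.598). Without control replicate 1 it was -0.05, and without knockout-labelled replicate 4 it was 0.07.

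Ngp, at chr9:110419747-110423012 (plus strand), encodes neutrophilic granule protein, a cathelicidin-related protein of myeloid precursors. For Ngp they were 1119, 205, 257 and 425 in the controls and 446, 332, 259 and 110 in the knockout-labelled libraries. Both ends of that range are the libraries at the ends for Mpo and Elane. The log2 difference was -0.64 (SE 0.55, 95% interval -1.86 to 0.58, limma adjusted p = 0.419), with -0.14 when control replicate 1 and -0.24 when knockout-labelled replicate 4 was left out.

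The late genes had the narrowest spread and a different order of libraries. S100a8, at chr3:90668978-90670035 (plus strand), encodes 1 chain of calprotectin, the calcium- and zinc-binding cytosolic protein of neutrophils. Its normalised read counts were 1042, 390, 265 and 769 in the controls and 358, 316, 784 and 376 in the knockout-labelled libraries. Among the latter, replicate 3 stood above the other three. The log2 difference was -0.33 (SE 0.43, 95% interval -1.27 to 0.62, limma adjusted p = 0.608), and -0.01 without control replicate 1. It was -0.62 without knockout-labelled replicate 3 (limma adjusted p = 0.295) and -0.66 without control replicate 3 (limma adjusted p = 0.229).

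S100a9, at chr3:90692632-90695721 (minus strand), encodes the partner chain, 22597 bases away. S100a9 had normalised read counts of 1542, 667, 422 and 1014 in the controls and 517, 508, 1221 and 507 in the knockout-labelled libraries. As for S100a8, control replicates 1 and 4 and knockout-labelled replicate 3 were high and control replicate 3 was lowest. The log2 difference was -0.36 (SE 0.40, 95% interval -1.26 to 0.54, limma adjusted p = 0.545), and -0.05 without control replicate 1. It was -0.67 without knockout-labelled replicate 3 (limma adjusted p = 0.200) and -0.68 without control replicate 3 (limma adjusted p = 0.201).

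Mmp8, at chr9:7558456-7568485 (plus strand), encodes neutrophil collagenase, which cleaves fibrillar collagen. Mmp8 had normalised read counts of 49.8, 9.08, 19.6 and 18.6 in the controls and 18.9, 6.84, 23.9 and 8.80 in the knockout-labelled libraries. The groups overlapped over most of their range, and the log2 difference was -0.61 (SE 0.55, 95% interval -1.83 to 0.61, limma adjusted p = 0.446). With control replicate 1 left out, the estimate was -0.19.

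**Figure D2:**
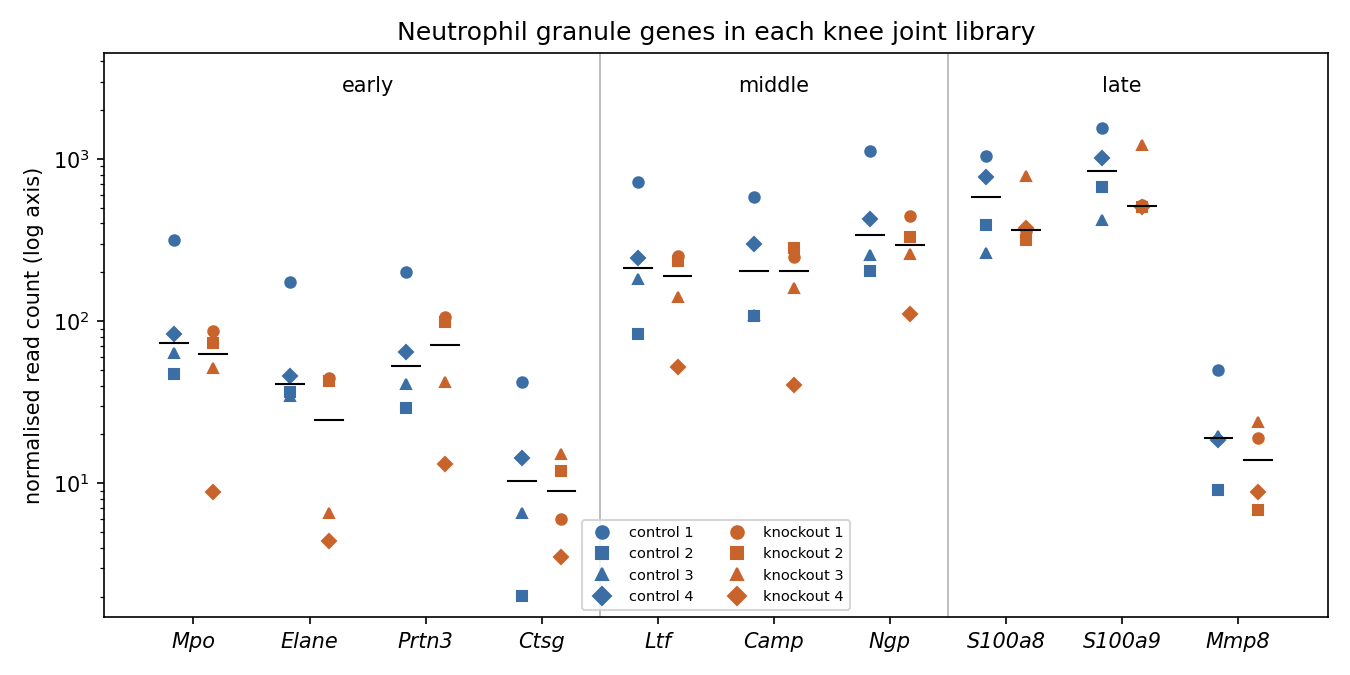
Normalised read count (log axis) of the 10 granule genes in each library, controls in blue on the left and knockout-labelled libraries in orange on the right of each gene; symbols give the replicate number and black lines the group medians. Control replicate 1 is the top point for every gene, knockout-labelled replicate 4 is the bottom point for 6 genes, and knockout-labelled replicate 3 is low for Elane (6.53) but high for S100a8 (784) and S100a9 (1221).

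Per kilobase of exon, the cytosolic late genes led and the early genes came low. On the scale of normalised reads per kilobase, averaged over 8 libraries, S100a9 was at 1532 and S100a8 at 774, in that order in 8 of 8 libraries. Ngp (323) and Camp (302) followed, with Ngp above Camp in 5 of 8 libraries, so this pair is not separated beyond its spread. Ltf (69.4) was above Elane (49.6) in 7 of 8. Elane and Prtn3 (43.0) could not be ordered, each above the other in 4 libraries, although both encode proteases of the same granules. Mpo (26.7) was above Ctsg (12.3) in 7 of 8, and Ctsg and Mmp8 (8.02) stood in either order in 4 libraries each. The Prtn3 exon length includes an upstream GENCODE isoform that starts before the RefSeq promoter printed above, which lowers its value on this scale.

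The balance of late against early genes varied widely from library to library. The mean log2 level of the late genes exceeded that of the early genes by 1.55, 2.78, 2.18 and 2.48 in the controls, in replicate order. In the knockout-labelled replicates the excess was 1.89, 1.25, 3.65 and 4.01. Knockout-labelled replicates 3 and 4 thus had late transcripts most in excess of early ones, and replicate 2 least, so that the same label held both ends of the range. The group means were 2.24 ± 0.53 (SD, n = 4) and 2.70 ± 1.34 (SD, n = 4), a difference of 0.46 that was 0.23 without control replicate 1, 0.14 without knockout-labelled replicate 3 and 0.02 without replicate 4 of that label. Middle and early genes kept closer: the middle exceeded the early mean by 2.39 to 2.83 in the controls and by 2.63 to 3.03 in the knockout-labelled libraries. Here the means were 2.60 ± 0.18 (SD, n = 4) and 2.88 ± 0.18 (SD, n = 4), so their difference of 0.28 was larger than the SD within either label, while the ranges overlapped. The late minus middle balance ran from -0.85 to 0.16 in the controls and from -1.38 to 0.98 in the knockout-labelled libraries. These stage means are a description with no test.

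As shares of the summed normalised reads of the 10 genes, the late genes, chiefly S100a8 and S100a9, made up 45.4% to 67.6% in the controls. In knockout-labelled replicates 1 to 4 they made up 42.9%, 43.6%, 75.0% and 79.3%. Early genes made up 11.7% and 11.9% of the sum in replicates 1 and 2 of that label and 4.26% and 2.66% in replicates 3 and 4, against 6.98% to 12.7% in the controls. The sum itself was 5797, 1577, 1400 and 2981 in the controls and 2083, 1908, 2706 and 1124 in the knockout-labelled libraries. Knockout-labelled replicate 3 therefore had a sum above 2 of the controls with an early share below all 4 of them.

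Across the 8 libraries, by the medians over gene pairs, levels of early and middle genes varied together, and those of late genes less so with either. Ctsg and Mmp8 departed from this. Pearson's r of log2 values over the 8 libraries, a description in which all pairs share the same libraries and 2 extreme ones, had a median of 0.95 among the middle genes, 0.90 between early and middle, and 0.79 among the early genes. It was 0.70 among the late genes, with 0.98 for S100a8 with S100a9, 0.58 between middle and late, and 0.51 between early and late. The early gene Ctsg had an r of 0.74 with S100a8, 0.73 with S100a9 and 0.73 with Mmp8, but 0.48 with Elane. The late gene Mmp8 had an r of 0.74 with Ngp and 0.71 with Ltf, against 0.70 with S100a8 and 0.70 with S100a9. Without control replicate 1 the early to middle median was 0.83, that among the middle genes 0.96 and that among the early genes 0.64, while it was 0.47 among the late genes, 0.28 between middle and late and 0.14 between early and late. With knockout-labelled replicate 4 left out as well, the early to middle median was 0.72, the middle genes had 0.89, the early genes 0.42 and the late genes 0.45, and those of middle and of early with late genes were 0.17 and -0.13.

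**Figure D3:**
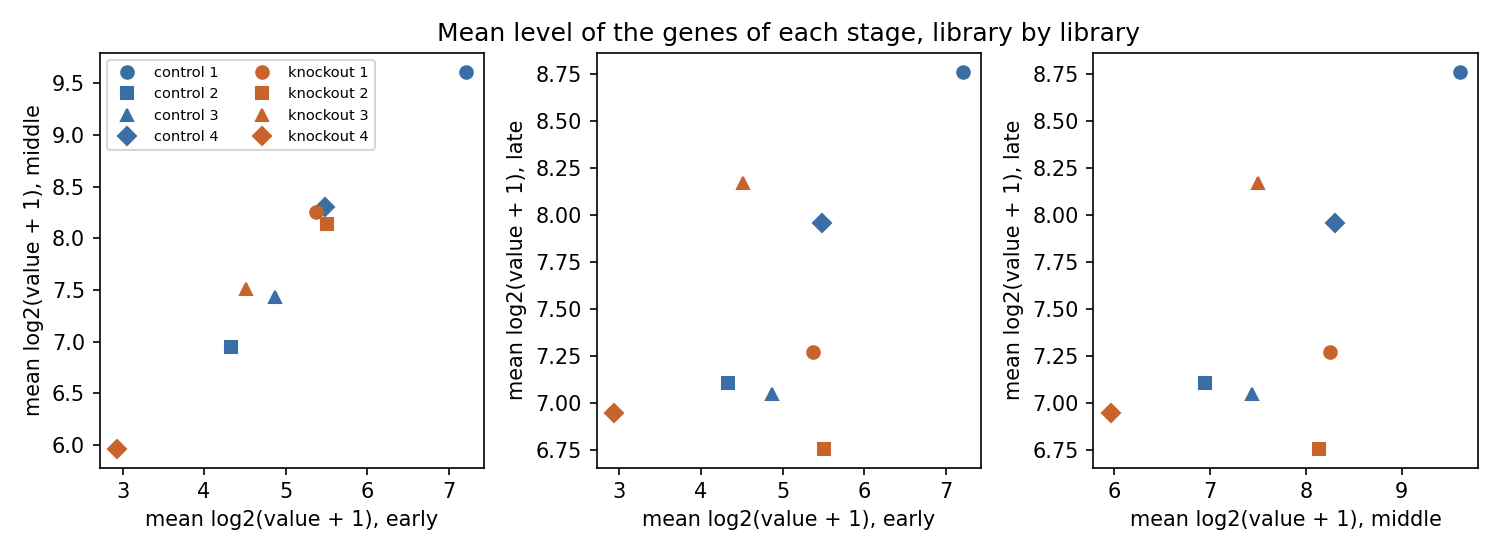
Mean log2(normalised read count + 1) of the genes of each stage, 1 point per library, with controls in blue, knockout-labelled libraries in orange and symbols for the replicate number. Early against middle (left) falls near a line. In early against late (centre) and middle against late (right), knockout-labelled replicates 3 and 4 have the most late level relative to the other stage. Their late minus early differences are 3.65 and 4.01. Their late means themselves, 8.17 and 6.95, are below the 8.76 of control replicate 1.

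Ratios of genes within a library do not depend on its scaling, and the partner genes of the late stage kept theirs almost fixed. S100a8 to S100a9, the chains of calprotectin, ran from 0.584 to 0.758 over all 8 libraries while S100a9 itself spanned 3.65-fold. Elane to Mpo, both early genes, ran from 0.50 to 0.766 in 7 libraries and was 0.128 in knockout-labelled replicate 3. In reads, Elane made up 6 of 53 Elane and Mpo reads there, 11.3% (exact binomial 95% interval 4.27% to 23.0%, counting error only), against 33.3% to 43.4% in the other 7. Across stages the ratios spread widely. S100a8 to Mpo was 3.28, 8.21, 4.16 and 9.24 in the controls and 4.13, 4.30, 15.3 and 42.7 in the knockout-labelled libraries, so replicates 3 and 4 of that label were above every control and replicates 1 and 2 within the control range. S100a9 to Elane was 187 and 115 in those 2 libraries and 8.80 to 22.0 in the other 6. The size of these high ratios rests on few early reads. In knockout-labelled replicates 3 and 4 Mpo had 47 and 10 reads and Elane 6 and 5. Camp to Ngp, both middle genes, ran from 0.368 to 0.848.

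**Figure D4:**
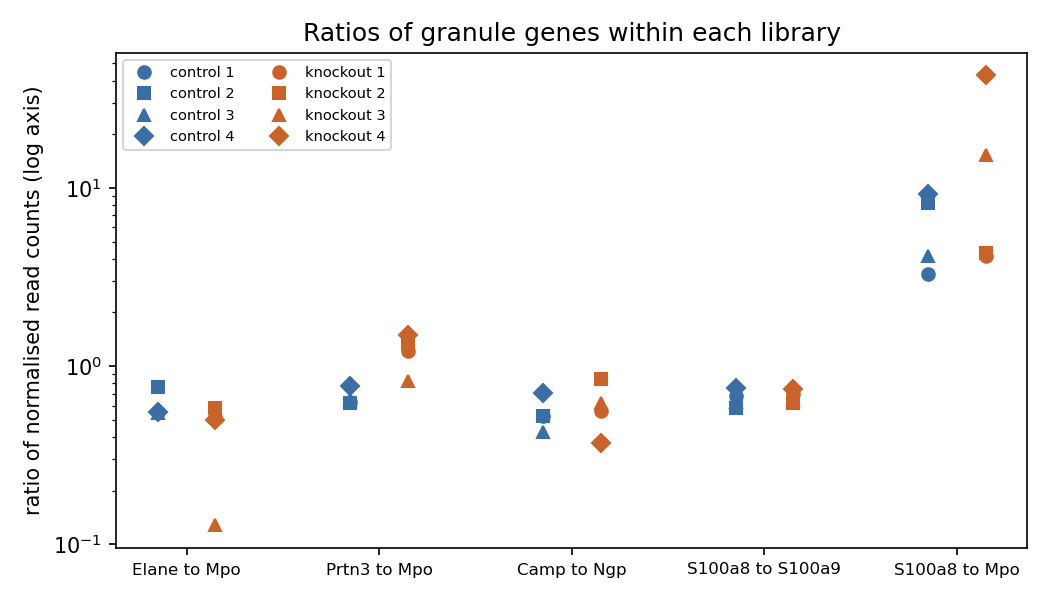
Ratio of normalised read counts (log axis) for 5 pairs of granule genes within each library, controls in blue and knockout-labelled libraries in orange, with symbols for the replicate number. S100a8 to S100a9 stays between 0.584 and 0.758, Elane to Mpo drops to 0.128 in knockout-labelled replicate 3 alone, and S100a8 to Mpo reaches 15.3 and 42.7 in knockout-labelled replicates 3 and 4.

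Other neutrophil genes, in lists kept apart from the members, were mostly not called either, and the calls there fell on genes that other cells of the joint also express. Of 11 tested other middle-stage genes, 1 was called higher and 0 lower (background 11.6% in each direction), with a median log2 difference of -0.61. The call was Lyz2, the lysozyme gene of neutrophils and macrophages (control mean 2519, knockout-labelled mean 5692, log2 difference 1.25, limma adjusted p = 0.0310), and the call was lost in 4 of the 8 fits that left out 1 library, with adjusted p of 0.0706 and 0.0856 when control replicate 1 or 2 was omitted and of 0.0811 and 0.0909 when knockout-labelled replicate 2 or 4 was. Cd177, a neutrophil surface protein of that list, ranged from 28.3 to 105 in the controls and from 6.16 to 53.9 in the knockout-labelled libraries. The neutrophil surface marker Ly6g was at 1.01 to 15.1 over all libraries, too low to be tested, and the chemokine receptor gene Cxcr2 at 0 (knockout-labelled replicate 4) to 20.7.

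The 7 tested other early-stage genes had a median log2 difference of 0.32, against -0.75 for the early members, and 5 estimates were above 0. Nkg7 (-0.56) and Myb (-0.43) were below 0. Ms4a3, Gfi1 and Prss57 of that list were too low to be tested. Control replicate 1 was highest for Ms4a3 (31.4) and Gfi1 (23.8), as for the members, but not for Prss57. Of the 7 tested, 2 were called higher and 0 lower (background 11.6% in each direction). They were Srgn, for the granule proteoglycan serglycin, made by many blood cells (log2 difference 1.01, limma adjusted p = 0.0201), and Cd63, a membrane protein of lysosomes and azurophil granules (0.53, adjusted p = 0.0107). With control replicate 2 left out, the adjusted p of Srgn was 0.0568. Of 11 tested other late-stage genes, 1 was called higher and 0 lower, with a median of -0.14. Mmp9, the gelatinase gene that osteoclasts also express strongly, had a control mean of 1190 and a knockout-labelled mean of 5092 (log2 difference 2.82, limma adjusted p = 0.0302), a call that edgeR (adjusted p = 0.109) and DESeq2 (adjusted p = 0.104) did not make and that was lost in 5 of 8 fits that left out 1 library. Among the controls Mmp9 was at 3699 in replicate 1 and at 254 to 519 in the others.

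The NADPH oxidase, the enzyme complex that makes superoxide in neutrophils and macrophages alike, had estimates above 0 for every subunit. Of its 5 subunit genes, 4 were called higher and 0 lower by limma, against 3 called by edgeR and 5 by DESeq2. Cyba, for a membrane subunit, had a control mean of 214 and a knockout-labelled mean of 408 (log2 difference 0.94, limma adjusted p = 0.00658). Ncf4, for a cytosolic subunit, rose as well (1.19, limma adjusted p = 0.0240), a call lost by quantile normalisation (adjusted p = 0.0596) and without control replicate 2 (0.0613), knockout-labelled replicate 1 (0.0629) or knockout-labelled replicate 4 (0.0511). Their summed level was 351 to 797 in the controls and 972 to 1250 in the knockout-labelled libraries. Macrophage markers moved with them: 9 of 12 were called higher, among them C1qb (1.28, limma adjusted p = 0.00399), a complement gene of macrophages. The list's sum was 1510 to 3460 in the controls and 5369 to 7177 in the knockout-labelled libraries, and no marker was at 0. Osteoclast markers did too, with 7 of 9 called higher by limma but 4 called by edgeR and 4 by DESeq2, sums of 2735 to 12215 against 9931 to 32975, and no marker at 0. Control replicate 1, where the granule genes were highest, had the control maximum of 12215, and the other controls were at 2735 to 3655. The part of these cells in the granule gene values was not tested.

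In the lists of inhibitors and attractants of neutrophils, limma on all libraries called only inhibitors. Of 9 tested inhibitors of granule proteases, 2 were called higher and 0 lower (background 11.6% in each direction). Both were inhibitors of metalloproteinases that connective tissue cells secrete: Timp1 (log2 difference 2.52, limma adjusted p = 0.0121) and Timp2 (1.12, adjusted p = 0.0138). Of 12 attractant and growth factor genes only 3 could be tested and 0 were called by limma, edgeR or DESeq2, with 1 at an unadjusted p under 0.05 by limma. That gene was Ppbp, for a platelet chemokine (log2 difference -1.47, limma adjusted p = 0.103, and 0.0352 without knockout-labelled replicate 2). Cxcl3, a neutrophil chemokine, was listed at 0 in the 4 controls and at 0.997, 3.42, 5.44 and 0 in the knockout-labelled libraries.

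Markers of the other marrow lineages did not follow the granule genes in every library. All 13 erythroid genes had estimates below 0, with a median of -1.87, and 0 were called by limma or edgeR and 1 by DESeq2, with 10 at an unadjusted p under 0.05 by limma. Their sum was 16960 to 99891 in the controls and 4092 to 43070 in the knockout-labelled libraries, with no marker at 0. It was highest in control replicate 4, not 1, and lowest in knockout-labelled replicate 4, as for the early and middle granule genes. Of 6 tested megakaryocyte genes 0 were called by limma and edgeR and 1 by DESeq2, with 4 at an unadjusted p under 0.05 by limma and a median of -1.09. Of 6 tested progenitor genes 2 were called higher and 0 lower, the factors Spi1 (1.78, limma adjusted p = 0.00795), which encodes PU.1 and is also active in macrophages, and Runx1 (1.40, adjusted p = 0.00911). Of 5 tested genes of B cell precursors 0 were called by limma and edgeR and 1, Ebf1, by DESeq2, with 1 at an unadjusted p under 0.05 by limma. Of 16 cell division genes 0 were called by limma, edgeR or DESeq2 (1 at an unadjusted p under 0.05 by limma), with a median of -0.11. The part of these lineages in the granule gene values was not tested.

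**Figure D5:**
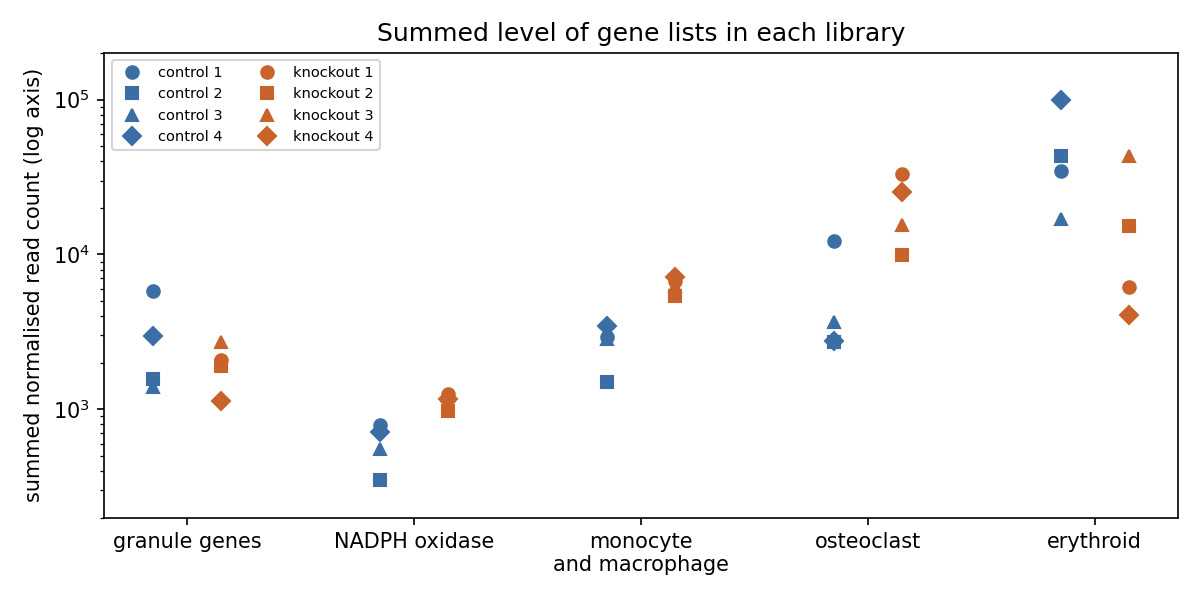
Summed normalised read count (log axis) of the 10 granule genes and of 4 marker lists in each library, controls in blue and knockout-labelled libraries in orange, with symbols for the replicate number. Granule genes overlap between the labels (1400 to 5797 against 1124 to 2706), NADPH oxidase and macrophage sums do not, and the erythroid sum is highest in control replicate 4 (99891).

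The genes outside the set whose levels ran most like each stage were ranked by Pearson's r with the mean log2 level of that stage over the 8 libraries, without p-values. For the early genes these were Cd177 (r = 0.96, Spearman's rho = 0.90), Gm5422 (0.95 and 0.81) and Pglyrp1 (0.95 and 0.90), the last for a peptidoglycan recognition protein of granules. With control replicate 1 and knockout-labelled replicate 4 left out, r was 0.96 for Cd177, 0.71 for Gm5422 and 0.87 for Pglyrp1. For the middle genes they were Pglyrp1 (r = 0.96, rho = 0.93), Cd177 (0.96 and 0.93) and Unc119 (0.95 and 0.98), with 0.96, 0.93 and 0.90 after the same omission. For the late genes they were Sult1a1, a sulfotransferase gene (r = 0.97, rho = 0.98), Gm14319 (0.95 and 0.93) and Cdadc1 (0.93 and 0.98). With control replicate 1 and knockout-labelled replicate 3 left out, these were 0.97, 0.95 and 0.90. The early and middle stages thus shared Cd177 and Pglyrp1 among their closest 3, and the late stage shared none with them.

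Genes next to the members did not carry their pattern as a rule. Cfd, the complement factor D gene that starts 2638 bases after Elane ends, had an r of 0.04 with Elane, and control replicate 1 was 1.61 times the mean of the other controls for Cfd, against 4.5 times for Elane. S100a6, the nearest tested gene before S100a8 at 44797 bases, was higher in the knockout-labelled libraries (log2 difference 0.82, limma adjusted p = 0.0298), with an r of -0.53 with S100a8. Klhl18, 2914 bases after Ngp, was lower (log2 difference -0.38, adjusted p = 0.0346 by limma), with an r of 0.29 with Ngp. Tspoap1, 7653 bases before Mpo, was the neighbour most like its member, with an r of 0.75 and control replicate 1 at 4.34 times the other controls. These neighbours were chosen by position among the genes tested.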

How the data were processed

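Poly-A RNA of 8 knee joints, 4 libraries per label, was analysed from 1 deposited table of 20681 genes. Per the labels and the submitters' processing notes, reads were aligned with HISAT2 to mm10 and counted with featureCounts, and the authors used DESeq2 for normalisation; versions, annotation and strand setting are not given in the sources used here. The deposited values are a signal, read counts divided by a size factor per library. Dividing each column by its smallest positive value gave whole numbers for 100% of values (within 0.05 of a whole number), and totals of 13991000 to 17411617 reads. These recovered counts served edgeR (version 4.0.16), which called 3324 genes, and DESeq2 (1.42.0), as alternatives.

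Differences were fitted with limma (3.58.1, trend, no covariate) in R 4.3.3 on log2(value + 1) for the 14949 genes that reached 10 in 4 or more libraries, and called at a Benjamini-Hochberg adjusted p under 0.05, two-sided. Fold changes on this scale understate those of low genes. Exact permutation tests used all 70 assignments of libraries (smallest two-sided p 0.0286). Scripts were tested on simulated data. No 2 libraries of a group agreed within sampling noise. Gene models are GENCODE M21 (GRCm38); 20520 table genes matched by symbol.

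The members, lists and tests were chosen with earlier results of these data known. Genes are named by rule: all members and the 3 genes most like each stage. From each list the rule takes up to 3 called genes of smallest p or, with none called, the gene of smallest p. Cd177, Ly6g, Cxcr2, Cxcl1, Cxcl2, Cxcl3 and Cxcl5 in the accounts of the lists, the ratios and the neighbours are further choices. Not all list genes so chosen are printed. Alternatives were the pseudocount, filter, scaling, tool, a replicate block and leaving out each library.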

Additional observations from a re-analysis of the deposited data

Results flagged for a closer look

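Single libraries stood far from the other 3 of their group in 11 of 92 gene and group combinations checked, 4 of them among the 20 of the granule genes; chance alone sets apart about 1 in 20 where values are normally distributed. These are normalised reads, not logarithms; on the log2 scale, tried after the data were seen, 5 of the 92 and 1 of the 20 were set apart, the latter S100a9. Mpo was at 318 normalised reads in control replicate 1, against 47.4 to 83.2 in the other controls, and Elane at 175 there, against 34.6 to 46.0. S100a8 was at 784 in knockout-labelled replicate 3, against 316 to 376 in the others of that label, and S100a9 at 1221, against 507 to 517. The same library was high for Srgn, at 873 against 404 to 475. Control replicate 1 was also high for the osteoclast genes Oscar (75.7 against 6.54 to 9.86) and Dcstamp (53.0 against 2.19 to 6.54), for Mmp9 (3699 against 254 to 519) and for the cartilage collagen gene Col11a1 (821 against 133 to 246). Control replicate 3 was high for Timp2 (7312 against 3552 to 4068) and Runx1 (467 against 218 to 240).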

How the results depend on the processing

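No member was called in any of 18 alternative fits, with 4 members (Mpo, Elane, Ctsg and Mmp8) untested where a value of 10 was required in all 8 libraries. Of 176 member and setting combinations 171 kept their direction and 5 turned: Prtn3 to 0.21 and Ctsg to 0.36 without control replicate 1, and Prtn3 to 0.27, Ctsg to 0.039 and Camp to 0.074 without knockout-labelled replicate 4. Over all omissions of 1 library, Prtn3 ran from -0.70 to 0.27, Ctsg from -0.92 to 0.36 and Camp from -0.87 to 0.074. The count of all genes called, 3461, was 2018 with a replicate block, which called no member, and ranged from 1751 (without knockout-labelled replicate 4) to 3841 when 1 library was left out, with 1887 when control replicate 2 and 2194 when control replicate 4 was omitted. The labels do not say that the replicate numbers pair the samples. Correlations of deviations from the group means were 0.21, -0.12, -0.23 and -0.06 for numbers 1 to 4. Of the 8 libraries 2 correlated best with their own number. So few values cannot decide whether the numbers share a batch. Another scaling used the genes left after removing the 50 highest of each library and the genes that failed the filter. It also left out the skeletal muscle and erythroid lists, the other early, middle and late neutrophil genes and the members. This scaling moved the median of all genes by 0.15 on the log2 scale and gave 78.5% of calls as higher, against 50.04%. The difference between labels in late minus middle balance, 0.18, ranged from -0.21 to 0.58 when 1 library was left out, with -0.10 without knockout-labelled replicate 3 and -0.21 without replicate 4. Prg2, an eosinophil gene with an estimate of 0.03, was at -0.24 by quantile normalisation and at -0.048, -0.0054, -0.36 and -0.18 with control replicates 1 and 2 and knockout-labelled replicates 1 and 4 omitted in turn, in a range of -0.36 to 0.48. Krt10, a keratinocyte gene at 0.12, was at -0.13 by quantile normalisation and -0.0043 without knockout-labelled replicate 4, and up to 0.42 without knockout-labelled replicate 1. The cause was not tested for these. Low counts limit Ctsg, Mmp8, Elane in 2 libraries, and Mpo in knockout-labelled replicate 4.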

Other observations

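Prtn3 and Mpo, both azurophil granule genes, stood in a different ratio in the libraries of the 2 labels, a pair picked out after its values were seen and given with no test. The ratio of Prtn3 to Mpo was 0.629, 0.617, 0.647 and 0.776 in the controls, in replicate order, and 1.22, 1.35, 0.830 and 1.5 in the knockout-labelled libraries. The ranges did not overlap, with 0.776 for the highest control and 0.830 for the lowest knockout-labelled library, although those of Prtn3 and of Mpo each did. Of all single genes tested, 25.1% had ranges that did not overlap, and no such share was worked out for ratios. Among the ratios worked out, only those of Prtn3 to Mpo or to Elane were separated between the labels. In recovered reads Prtn3 made up 38.2% to 43.7% of the pair in the controls and 45.3% to 60.0% in the knockout-labelled libraries, the highest from 25 reads. The ratio of Prtn3 to Elane was 0.806 to 1.40 in the controls and 2.32 to 6.5 in the knockout-labelled libraries. Plppr3, which overlaps Prtn3 on the other strand, rose in the knockout-labelled libraries by 1.39 on the log2 scale (limma adjusted p = 0.0212), and its part in these ratios was not tested.

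Markers of other granulocytes were few, with 1 of 3 tested mast cell and basophil genes called higher and 0 lower. Of the eosinophil list 1 gene, Prg2, could be tested, at a mean of 29.9 in the controls and 37.3 in the knockout-labelled libraries. Mcpt4, a protease gene of connective tissue mast cells that lies 37568 bases from Ctsg, was at 19.5, 10.1, 17.8 and 3.29 in the controls and 36.9, 47.9, 38.1 and 29.0 in the knockout-labelled libraries (log2 difference 1.72, limma adjusted p = 0.0293). Its call was lost in 4 of the 8 fits that left out 1 library, and its r with Ctsg over the libraries was 0.02.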
